A study of Oryza sativa Japonica Group with 12 samples.

Results

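GRF6 (LOC4333990, read by probe set 16221521 and annotated to chromosome 3) is the gene of a growth-regulating factor of rice. It was chosen by its rise over the stem cortex on these same arrays, and it is 1 of the 24160 genes that a probe set annotated with a single gene measured. The other 9 genes named GRF plus a number that could be matched (GRF1, GRF3, GRF4, GRF5, GRF7, GRF8, GRF10, GRF11 and GRF12) served as background for whether the rise was general to the family. No separate gene was matched to GRF2 or GRF9.

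The arrays measured RNA from laser-microdissected crown root (CR) primordia, the beginnings of the roots that rice forms on its stem base. All 4 groups came from untreated Oryza sativa ssp. japonica cv. Taichung 65 plantlets, with no transgene or mutation named, sampled 8 days after sowing. The groups were the early, the intermediate and the late stage of primordia, each stage a ring along the stem base, and cortex cut from the sections that held the primordia. There were 3 arrays per group and 12 in all, from 6 stem bases cut at 15 µm. Each replicate pooled 2 stem bases, and all 4 tissues of a replicate came from the same stem bases, so an array averages over plants and over all primordia of a ring, and the cortex is a neighbouring tissue of the stem, not root cortex.

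Growth-regulating factors are plant transcription factors with a QLQ domain, through which they bind the GRF-interacting factor (GIF) coactivators, and a WRC domain, through which they bind DNA. They are known for sustaining cell proliferation in growing organs, and the microRNA miR396 cuts the transcripts of most of them. In rice, family members have been studied chiefly in stems, leaves, panicles and grains.

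In cortex, GRF6 had a log2 signal of 4.59, 3.48 and 3.71 in replicates 1, 2 and 3. In early primordia it was 5.31, 5.35 and 5.29, in intermediate primordia 5.67, 5.46 and 5.17, and in late primordia 5.85, 5.51 and 5.24. The lowest of the 9 primordium arrays lay above the highest cortex array, so no primordium stage overlapped cortex. The same held for 5.55% of all genes. Group means were 3.93 ± 0.59 (SD, n = 3) in cortex, 5.32 ± 0.03 in the early stage, 5.44 ± 0.25 in the intermediate stage and 5.53 ± 0.30 in the late stage. On the log2 scale the level was higher than in cortex by 1.39 in the early stage, by 1.51 in the intermediate stage and by 1.61 in the late stage (SE 0.27 each), that is 2.63-fold, 2.85-fold and 3.05-fold. These are the values GRF6 was selected on, so they are given as a description with no test. In tissue pieces of this kind, fewer cells that express a gene and less of its RNA per cell cannot be told apart.

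**Figure D1:**
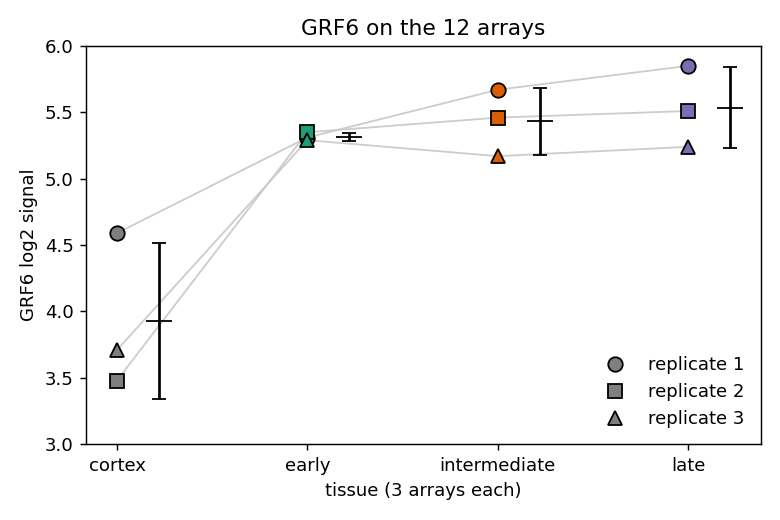
Log2 signal of GRF6 (vertical axis) in cortex and in early, intermediate and late CR primordia (horizontal axis), 1 point per array, with grey lines joining the arrays of a replicate, which share their stem bases, and with the mean and SD of each group beside the points. The cortex arrays lie at 3.48 to 4.59 and the 9 primordium arrays at 5.17 to 5.85.

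Because the 4 tissues of a replicate shared their stem bases, each primordium array could also be set against the cortex of the same plants. The difference in early primordia was 0.72, 1.87 and 1.59 in replicates 1, 2 and 3. In intermediate primordia it was 1.08, 1.98 and 1.47, and in late primordia 1.26, 2.03 and 1.54. All 9 differences were positive, and replicate 1 gave the smallest in every stage, since its cortex array held more GRF6 signal than those of replicates 2 and 3. Replicate 1 also had the highest GRF6 signal among the intermediate and among the late arrays.

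Cortex replicate 1 stood apart from the other cortex arrays in its brightest signals as well. The 98th percentile of all probe sets was 8.46 on it, 7.48 and 7.54 on cortex replicates 2 and 3, and 8.66 to 9.06 on the primordium arrays, while array medians were alike (2.82 to 2.97). With cortex replicate 1 as the only control, GRF6 was higher in early, intermediate and late primordia by 0.73, 0.85 and 0.94. Without it, the differences were 1.73, 1.84 and 1.94. Quantile normalization of the deposited values, which gives all arrays the same spread, gave 1.31, 1.35 and 1.51, with cortex arrays at 4.64, 3.46 and 3.73 and primordium arrays at 5.17 to 5.59.

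**Figure D2:**
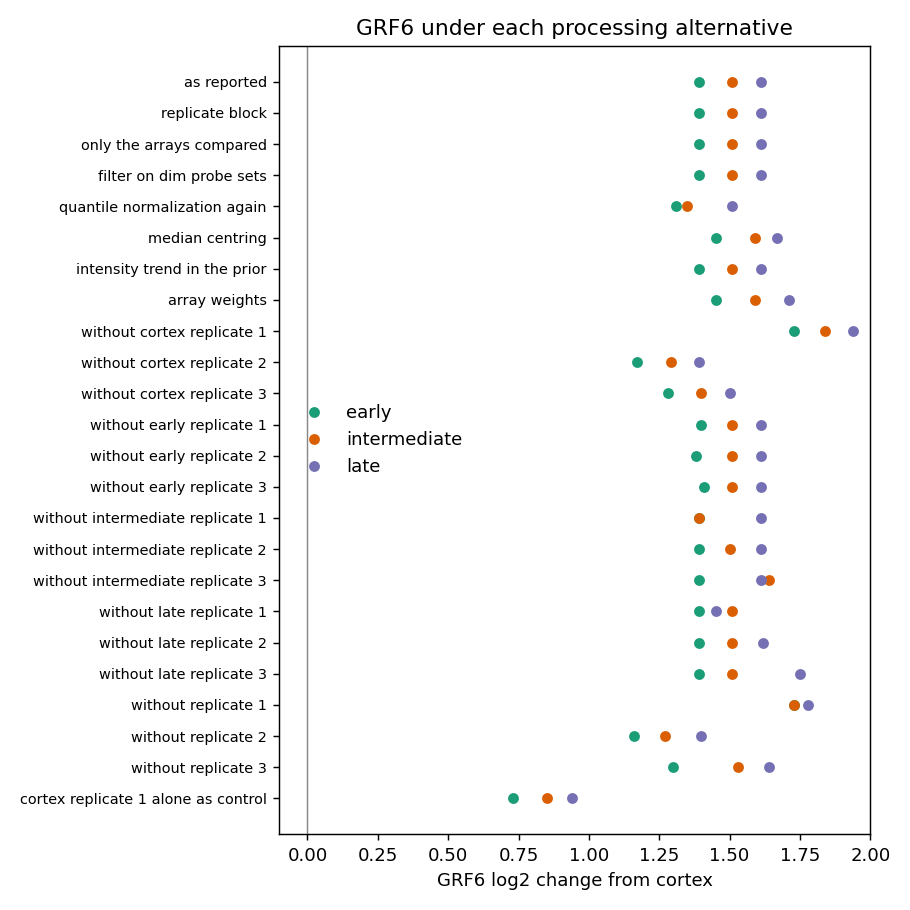
Log2 change of GRF6 from cortex (horizontal axis) in early, intermediate and late primordia (colours), as reported and under the processing alternatives named on the vertical axis. All points lie above 0; the lowest, 0.73, 0.85 and 0.94, were obtained with cortex replicate 1 as the only control.

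Between the primordium stages GRF6 was not called different. The mean level was lowest in early and highest in late primordia, but neighbouring stages differed by less than the spread between replicates. On the log2 scale late minus early was 0.21 (95% interval -0.37 to 0.80; limma, Benjamini-Hochberg adjusted p = 0.978), intermediate minus early was 0.12 (-0.47 to 0.70; adjusted p = 0.999), and late minus intermediate was 0.10 (-0.49 to 0.68; adjusted p = 1). These stage differences were not what GRF6 was selected on. No gene at all was called between any 2 stages (0% of 24160 genes in each of the 3 comparisons, at an adjusted p under 0.05 and a fold change of at least 1.5). At an unadjusted p under 0.05 the counts of probe sets were 1499 for late minus early, 758 for intermediate minus early and 598 for late minus intermediate, and GRF6 was in none of them.

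Marker genes placed GRF6 beside the state of the dissected tissue. The mean log2 signal of 12 dividing-cell genes, among them PCNA, which holds the DNA polymerase on its template, and CDKB2-1, a mitotic kinase, was 3.33 to 3.52 in cortex, 4.02 to 4.11 in early, 3.86 to 4.27 in intermediate and 3.48 to 4.04 in late primordia. Every primordium array except late replicate 3 had a dividing-cell mean above the cortex range. Late replicate 3 had a dividing-cell mean of 3.48, within the cortex range, with GRF6 at 5.24, above every cortex array. The single genes were mixed on that array. CDKB2-1 was at 6.39, above its cortex values of 5.54 to 6.12, and PCNA at 4.52, within its cortex values of 4.20 to 4.77. The root meristem genes QHB, SCR1 and SHR1 averaged 3.62 to 4.01 in cortex, 4.65 to 5.08 in early, 3.64 to 4.40 in intermediate and 3.52 to 4.09 in late primordia, so their mean was above the cortex range in early primordia on all 3 arrays, whereas intermediate and late primordia overlapped cortex; PLT genes and CRL1 were not matched by name. The study lists OsPLT1 and OsPLT3 as upregulated against cortex in all 3 stages, and OsPLT4, OsPLT5 and OsPLT6 in fewer. The 3 matched genes therefore do not stand for root meristem genes in general. They also differed from one another. SCR1 and SHR1 were above every cortex array in early primordia. QHB overlapped cortex there (4.81, 4.44 and 4.36, against 4.03, 4.06 and 4.44 in cortex). In late primordia QHB was below every cortex array (3.79, 3.76 and 3.66). GRF6 was above cortex in all 3 stages. Green-tissue genes (4 members) averaged 3.71 to 5.27 in cortex and 2.20 to 2.55 in primordia, and vascular genes (4 members) 2.66 to 3.18 and 2.49 to 2.70. The part of tissue composition in the GRF6 values was not tested.

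**Figure D3:**
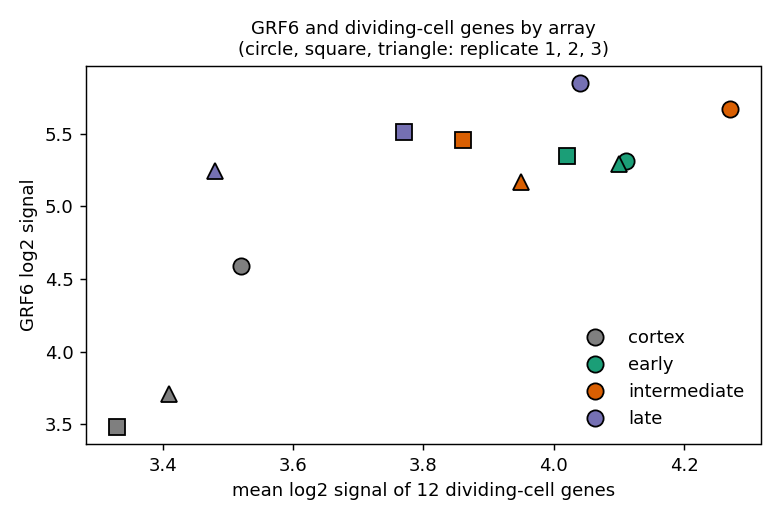
Log2 signal of GRF6 (vertical axis) against the mean log2 signal of 12 dividing-cell genes (horizontal axis), 1 point per array, with colour for the tissue and shape for the replicate. Early arrays cluster at 4.02 to 4.11 on the horizontal axis. Late replicate 3 lies within the horizontal range of the cortex arrays (3.48) but above them in GRF6 (5.24). All other primordium arrays lie to the right of the cortex arrays.

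Of the other 9 GRF genes, 0 were called in any single stage against cortex by limma, in either direction, a count near the share over all genes in the same comparisons, so it is not a result about the family. Their log2 changes ran from -0.33 to 0.50 in early, -0.80 to 0.64 in intermediate and -0.69 to 0.69 in late primordia. The GRF6 values were 1.39, 1.51 and 1.61. Because GRF6 was selected for this rise, a place above unselected genes was favoured in advance and is a description only. Over all genes the share was small as well: 1.7% were called higher and 0.952% lower in early primordia, 3.21% higher and 2.51% lower in intermediate, and 1.61% higher and 1.64% lower in late primordia. Of the genes called, 64.1%, 56.2% and 49.4% were higher in the 3 stages, against 48.4%, 37.3% and 32.6% after quantile normalization and 70.5%, 67.1% and 56.3% after centring arrays on their medians. At an unadjusted p under 0.05, 1 of the 9 GRF genes passed in early primordia and 2 each in intermediate and late primordia. At the thresholds of the study's methods, an unadjusted p under 0.01 with a fold change of 1.5, 0, 1 and 1 passed. The median log2 change of the 9 genes was 0.16, 0.04 and -0.02, beside -0.03, -0.03 and -0.02 over all genes. The medians in intermediate and late primordia changed sign with the scaling: they were -0.06 and -0.17 after quantile normalization, and 0.12 and 0.04 after median centring.

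**Figure D4:**
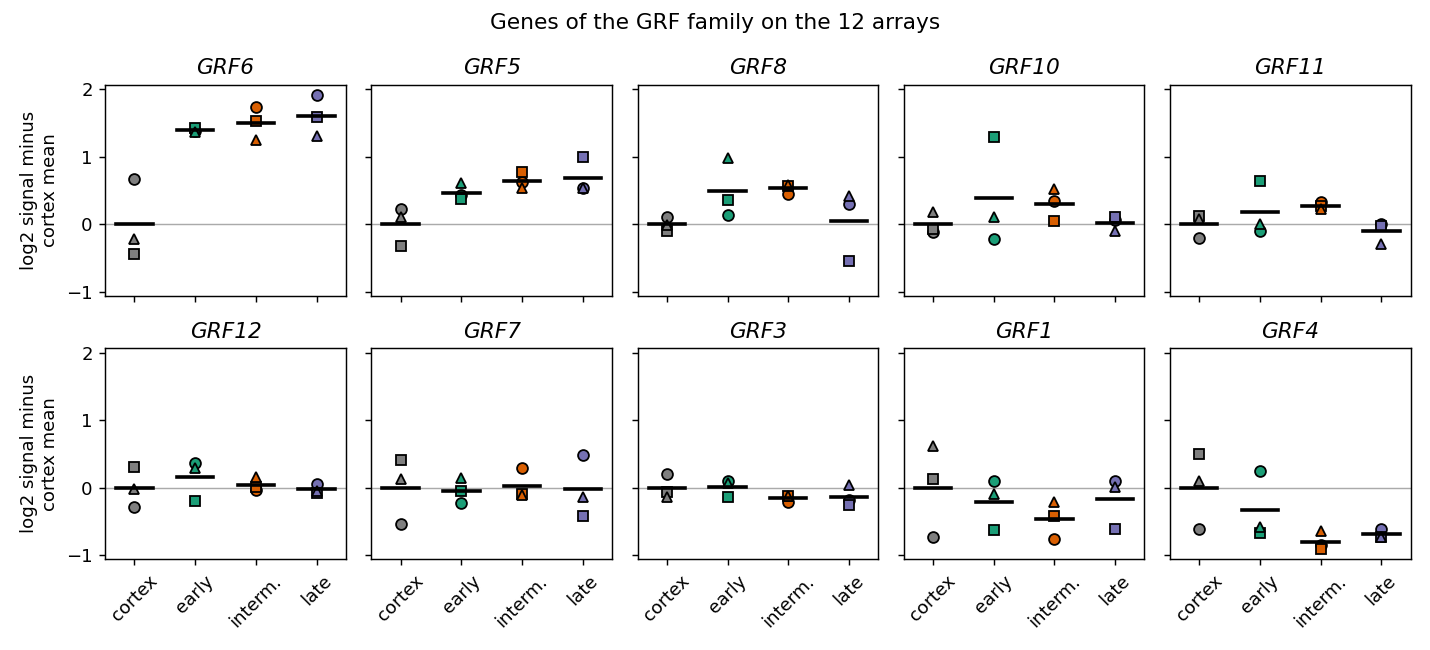
Log2 signal minus the gene's own cortex mean (vertical axis) for GRF6 and the other 9 GRF genes in cortex and the 3 primordium stages (horizontal axis), 1 point per array with shape for the replicate and a bar for the group mean. GRF6 means lie at 1.39, 1.51 and 1.61, and those of the other genes between -0.80 and 0.69. GRF6 was selected for its rise on these arrays, the other genes were not.

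GRF5 (LOC4339928) was the family member nearest to GRF6 by correlation over the 12 arrays (Pearson r = 0.857), though not over the 9 primordium arrays alone. Its log2 signal was 3.53, 2.97 and 3.40 in cortex, 3.73, 3.67 and 3.91 in early, 3.93, 4.07 and 3.83 in intermediate, and 3.83, 4.30 and 3.84 in late primordia. All 9 primordium arrays were above every cortex array, which held for 5.55% of all genes. The log2 changes were 0.47 ± 0.18 (SE; adjusted p = 0.162), 0.64 ± 0.18 (adjusted p = 0.0549) and 0.69 ± 0.18 (adjusted p = 0.0584) in the 3 stages. Averaged over the 3 stages, a comparison added after the values had been seen, GRF5 rose by 0.60 ± 0.14 (limma adjusted p = 0.0256), where 5.56% of all genes were called higher and 3.75% lower. It was called in intermediate and late primordia when cortex replicate 1 was left out (0.76, adjusted p = 0.0235, and 0.81, adjusted p = 0.0218). With cortex replicate 1 as the only control, its changes were 0.24, 0.41 and 0.46.

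GRF4 (LOC4330436), known for a gain-of-function allele that enlarges rice grains, went the other way in its values. Cortex arrays were at 3.92, 5.03 and 4.63, early arrays at 4.77, 3.85 and 3.95, intermediate arrays at 3.68, 3.61 and 3.88, and late arrays at 3.91, 3.80 and 3.79. Intermediate and late arrays were all below cortex, whereas early arrays overlapped it. The log2 changes of -0.33, -0.80 and -0.69 (SE 0.29) did not pass (adjusted p = 0.534, 0.104 and 0.175). They depended on cortex replicate 1: without it the intermediate and late changes were -1.10 (adjusted p = 0.0182) and -0.99 (adjusted p = 0.0313), both called, and without all arrays of replicate 1 the changes of -0.92, -1.08 and -1.03 were called in all 3 stages. With cortex replicate 1 alone they were 0.27, -0.20 and -0.09, and without all arrays of replicate 2 the early change was 0.09.

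GRF8 (LOC4350711) was at 3.96, 3.75 and 3.83 in cortex, 3.99, 4.20 and 4.83 in early, 4.30, 4.41 and 4.43 in intermediate, and 4.14, 3.30 and 4.26 in late primordia. Its changes were 0.50 and 0.54 (SE 0.26; adjusted p = 0.303 and 0.203) in early and intermediate primordia and 0.06 in late primordia, where replicate 2 fell below every cortex array. GRF10, which acts with GRF6 in rice floral organ development, had changes of 0.39, 0.30 and 0.02 (SE 0.31), and a single early array, replicate 2 at 5.69, exceeded all others. GRF1, described first in the family for its induction by gibberellin in rice stems, had -0.21, -0.47 and -0.17 (SE 0.34). GRF3, GRF7, GRF11 and GRF12 had changes from -0.16 to 0.28, and adjusted p values from 0.346 to 0.981. The signs of GRF1, GRF3, GRF7, GRF8, GRF10, GRF11 and GRF12 were not stable to the scaling or to leaving out arrays in at least 1 stage each, and no direction is given for them. Between the stages none of the 9 genes was called.

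The GIF coactivators and the other proteins known to act on growth-regulating factors came to 4 matched genes. GIF3-like (LOC4352256), named from its description in a gene list of the study that was itself selected on these arrays, is therefore not independent evidence of a direction. Its log2 signal was 5.08, 2.63 and 4.86 in cortex, 6.26, 6.40 and 6.43 in early, 6.56, 6.12 and 6.39 in intermediate, and 6.35, 5.98 and 6.46 in late primordia, with cortex replicate 2 far below the other cortex arrays. The changes were 2.17, 2.16 and 2.07 (SE 0.51), called higher in early (adjusted p = 0.0499) and intermediate primordia (adjusted p = 0.0372), but not in late primordia (adjusted p = 0.0514). With replicates as a paired block, the late change was called too (adjusted p = 0.0452). The early call was lost in 13 of 15 fits that left out an array or a replicate (changes of 1.38 to 2.67), all except those without cortex replicate 1 or cortex replicate 2, and the intermediate call in 12 of 15 (1.5 to 2.51).

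MKB3 (MAKIBA3, LOC4334010), the rice ortholog of the Arabidopsis GIF1 coactivator, was at 2.56, 2.32 and 2.50 in cortex, 3.15, 3.54 and 2.60 in early, 3.07, 3.03 and 3.05 in intermediate, and 3.27, 2.70 and 2.62 in late primordia. All 9 primordium arrays were above every cortex array, as for 5.55% of all genes. Early replicate 3 (2.60) lay only just above cortex replicate 1 (2.56). The changes of 0.64, 0.59 and 0.41 (SE 0.23) did not pass (adjusted p = 0.152, 0.127 and 0.299), and the probe set was dim, with a mean below that of the median probe set. SLR1 (LOC4333860), the DELLA repressor of gibberellin signalling, which binds GRF4 in rice, was at 4.93, 5.09 and 4.81 in cortex, 4.40, 4.16 and 4.50 in early, 4.23, 4.27 and 4.56 in intermediate, and 4.33, 4.69 and 4.18 in late primordia. All 9 primordium arrays were below every cortex array, as for 4.98% of all genes, with changes of -0.59, -0.59 and -0.54 (SE 0.16; adjusted p = 0.0769, 0.0552 and 0.0854). After quantile normalization SLR1 was called lower in early (-0.91, adjusted p = 0.0478) and intermediate primordia (-0.93, adjusted p = 0.0363), whereas GIF3-like was no longer called (adjusted p = 0.107 and 0.0852). GSK2, a kinase of brassinosteroid signalling that acts on GRF4 in rice, had changes of 0.37, 0.30 and 0.07 (SE 0.24), with adjusted p values from 0.405 to 0.885. The miR396 precursors were not matched on the array annotation and are not analysed here.

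Of the genes reported in rice as targets of GRF6 or GRF10, 7 were matched and 0 were called in any stage. With 1.7%, 3.21% and 1.61% of all genes called higher and 0.952%, 2.51% and 1.64% lower, a count of 0 of 7 is near the background and is not a result about these genes. They were the receptor kinase gene CR4, the histone demethylase gene JMJ706, the inflorescence regulators G1L5 (TAWAWA1) and MADS34, the auxin synthesis gene YUCCA1 and 2 auxin response factor genes both named ARF2. Their changes ran from -0.46 to 0.35, with medians of -0.06, -0.17 and -0.28, and 0 passed an unadjusted p under 0.05 in any stage. Several were dim, beside array medians of 2.82 to 2.97. Group means were 2.33 to 2.42 for MADS34, and 2.55 to 3.00 for CR4, G1L5 and the ARF2 gene LOC4325895. CR4 had 0.35 in early primordia and JMJ706 -0.46, with adjusted p values of at least 0.311 across the list in that stage.

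KNOX homeobox genes, some of which maintain the shoot meristem, came to 11 matched genes. Repression by rice growth-regulating factors has been reported for a KNOX promoter, not for all of these genes. Of these, 1 was called lower in early and 3 each in intermediate and late primordia, beside 0.952%, 2.51% and 1.64% of all genes, and 0 were called higher. OSH1, the rice counterpart of maize Knotted1, was at 3.82, 4.43 and 4.94 in cortex, 3.62, 3.58 and 3.74 in early, 3.30, 2.83 and 3.39 in intermediate, and 3.05, 3.09 and 2.57 in late primordia. It fell by 1.22 in intermediate (adjusted p = 0.0292) and by 1.49 in late primordia (adjusted p = 0.0219), with -0.75 in early primordia (adjusted p = 0.144). OSH3 fell by 0.76, 0.84 and 0.82 in the 3 stages (adjusted p = 0.0464, 0.0260 and 0.0371), and OSH6 by 0.98 in intermediate (adjusted p = 0.00935) and 0.78 in late primordia (adjusted p = 0.0206), with -0.44 in early primordia. For OSH1, OSH3 and OSH6 all 9 primordium arrays were below every cortex array, as for 4.98% of all genes. The probe sets of OSH3 and OSH6 were dim, with means below that of the median probe set. The median over the 11 genes was -0.27, -0.34 and -0.26. OSH71 (also named Oskn2) and OSH15 were not called. Their changes were 0.11, -0.01 and 0.03 for OSH71 and 0.05, -0.06 and -0.11 for OSH15. Regulation of any of these KNOX genes by growth-regulating factors was not tested. In the paired fit OSH3 in early primordia was not called (adjusted p = 0.0582). Leaving out an array or a replicate ended the early call of OSH3 in 11 of 15 fits (-0.88 to -0.58 in those fits). It ended the intermediate calls of OSH1, OSH3 and OSH6 in 6, 6 and 3 of 15 fits and their late calls in 6, 9 and 7 of 15, and every intermediate and late call was among those lost without replicate 2 and without replicate 3. All 7 calls were also lost when only the arrays compared entered the fit (adjusted p = 0.116 to 0.166) and with cortex replicate 1 as the only control (-0.92 to -0.50).

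**Figure D5:**
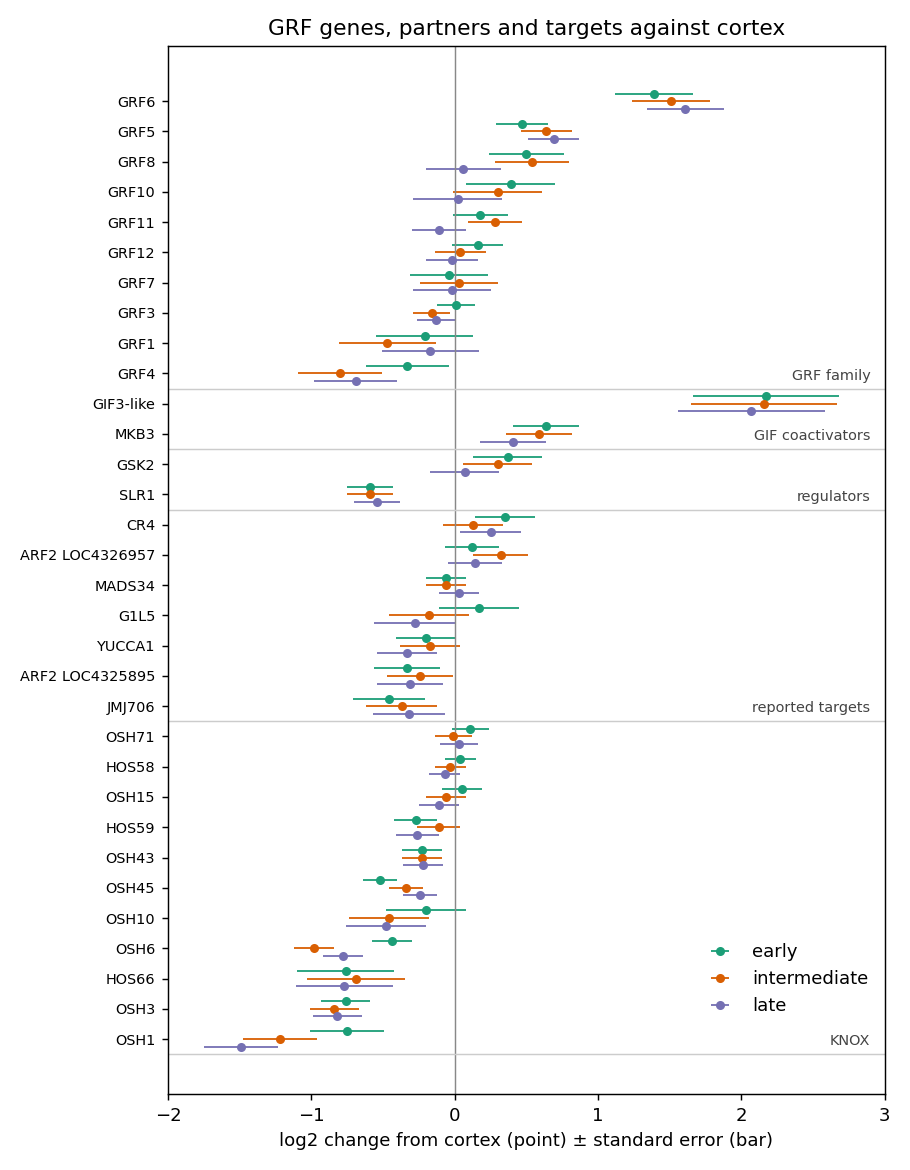
Log2 change from cortex with its standard error (horizontal axis) in early, intermediate and late primordia (colours) for the GRF family, the GIF coactivators, other regulators, reported targets and KNOX genes (vertical axis, ordered by mean change within each group). GRF6 (1.39 to 1.61) and GIF3-like (2.07 to 2.17) have the highest values shown and OSH1 in late primordia the lowest (-1.49). GRF6 was selected on these arrays, and GIF3-like was found through a gene list selected on them.

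Of the 10 genes nearest to GRF6 in the RefSeq gene order of assembly ASM3414082v1, 5 on each side, 0 were called in any stage, a count near the shares of all genes called (1.7%, 3.21% and 1.61% higher, 0.952%, 2.51% and 1.64% lower). Their log2 changes ran from -0.36 to 0.69. OSH3 and OSH1 lie on one side of GRF6 with 15 and 17 genes between, a proximity noticed after their values had been seen.

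The 5 genes whose log2 signal followed that of GRF6 most closely across the 12 arrays were LOC4351876 (Pearson r = 0.989), LOC4346123 (0.987), LOC4339400 (0.986), LOC9270708 (0.986) and LOC4344803 (0.985). LOC4351876, for example, was at 5.41, 2.95 and 3.07 in cortex and at 6.60 to 7.52 in primordia, so that it shared with GRF6 the high cortex replicate 1. These correlations are descriptions over arrays that share plants within a replicate, with a brightness difference among the cortex arrays, and 542 genes had r above 0.9. Over the 9 primordium arrays alone the r of these 5 genes was 0.768 to 0.912, and 0 of them were among the 5 closest by that measure or by Spearman's rho over 12 arrays. Within the family r over the 12 arrays was 0.857 for GRF5, 0.36 for GRF8 and -0.744 for GRF4, and over the 9 primordium arrays 0.251, -0.275 and -0.244. The highest family r over the 9 primordium arrays was that of GRF7 (0.626) and the lowest that of GRF3 (-0.62). Over the 12 arrays GRF7 and GRF3 had -0.123 and -0.235.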

How the data were processed

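Each RNA extract was amplified from 1 or 2 ng and hybridised to 1 Affymetrix rice array. The authors deposited log2 signals of 36643 probe sets. The methods name RMA in Transcriptome Analysis Console and the submitters' processing notes name GCRMA with Affymetrix Expression Console; the sources do not settle which procedure produced these signals. The array annotation gave a single gene for 24161 probe sets (24160 genes), several for 90 and none for 12392; the latter 2 kinds were not tested. The array number limits the precision.

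A model of group means was fitted to the 12 arrays (limma 3.58.1, R 4.3.3), with Benjamini-Hochberg adjustment over all 24161 probe sets; a gene was called at an adjusted p under 0.05 and a fold change of at least 1.5, and the script was checked on simulated data. Named were GRF6, all matched GRF and GIF genes, the regulators, the targets and KNOX genes described or called, and the 5 genes closest to GRF6 by Pearson r. The members and lists were chosen with earlier results of these data known. Replicate numbers were taken to pair the tissues. The study's methods describe each replicate as a pair of stem bases, with the cortex taken from the sections that held the primordia. Deviations from group means correlated at a mean r of 0.051 within a number (7 of 18 pairs above 0.1). Between numbers the mean r was -0.0258 (8 of 36 pairs above 0.1). Alternatives were the replicate block, only the arrays compared, a filter on dim probe sets, other scalings, priors, weights, adjustments and thresholds, leave-outs, and, added after the values had been seen, cortex replicate 1 alone and the mean of the 3 stages. Gene names came from GEO's platform annotation and RefSeq (ASM3414082v1). RefSeq start positions served only to order the genes along the chromosome of GRF6. No coordinates are printed, because the array's build is not given in the sources used here. No sequences were used.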

Additional observations from a re-analysis of the deposited data

How the results depend on the processing

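Without cortex replicates 2 and 3, the GRF6 change from cortex was 0.73, 0.85 and 0.94 in early, intermediate and late primordia; with the replicate block it was 1.39, 1.51 and 1.61. Leaving out arrays or replicates (15 fits) gave 1.16 to 1.73, 1.27 to 1.84 and 1.39 to 1.94. Between the stages the leave-outs gave 0.05 to 0.36 for late minus early, 0.00 to 0.25 for intermediate minus early and -0.06 to 0.24 for late minus intermediate, none called.

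The count of the other 9 GRF genes called was 0 in each stage. For the mean of the 3 stages, a single comparison with cortex, it was 1, where 5.56% of all genes were called higher and 3.75% lower. By stage it was 1 in intermediate primordia with the dim filter or median centring. At the methods' thresholds it was 1 in intermediate and late primordia. The leave-outs gave 0 to 1, 0 to 2 and 0 to 2. Of the partner and regulator genes, 1, 1 and 0 were called, and 1 in the single comparison of the mean of the 3 stages. Early primordia gave 0 with only the arrays compared, median centring, the intensity trend or adjustment over all probe sets, and 2 at the methods' thresholds. Intermediate primordia gave 0 with only the arrays compared and 2 at the methods' thresholds. Late primordia gave 1 with the replicate block, the dim filter, array weights, adjustment over all probe sets and the methods' thresholds. The leave-outs gave 0 to 1 in every stage. Of the targets and KNOX genes, 1, 3 and 3 were called, and 3 in the single comparison of the mean of the 3 stages. Early primordia gave 0 with the replicate block. The stages gave 0, 0 and 0 with only the arrays compared. With the dim filter, which removed OSH3 and OSH6, and also GRF3 and MKB3, they gave 0, 1 and 1. In the leave-outs they gave 0 to 4, 0 to 4 and 0 to 3. The replicate block changed no other call than OSH3 in early and GIF3-like in late primordia.

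Changes of sign, none of them past the threshold, were as follows. After quantile normalization GRF7 in intermediate primordia was -0.17, GRF10, GRF12 and GRF8 in late primordia were -0.17, 0.02 and 0.00, and GRF11 was -0.12 in early and -0.06 in intermediate primordia. After median centring GRF12 in late primordia was 0.05 and GRF7 0.01 in early and 0.04 in late primordia. With array weights GRF10 in late primordia was -0.01, GRF7 in intermediate primordia -0.04 and GSK2 in late primordia 0.00. With cortex replicate 1 alone GRF4 in early primordia was 0.27, GRF1 was 0.53, 0.27 and 0.57, GRF3 in early primordia -0.19, GRF7 0.49 in early and 0.51 in late primordia, and GRF12, GRF11 and GRF8 in late primordia 0.27, 0.09 and -0.05. The leave-out ranges that spanned 0 are these. In early primordia they were GRF1 from -0.73 to 0.10, GRF10 from -0.10 to 0.69, GRF11 from -0.05 to 0.32, GRF12 from -0.10 to 0.49, GRF3 from -0.09 to 0.11, GRF4 from -0.92 to 0.09 and GRF7 from -0.31 to 0.16. In intermediate primordia they were GRF12 from -0.10 to 0.21 and GRF7 from -0.37 to 0.29. In late primordia they were GRF1 from -0.67 to 0.14, GRF10 from -0.05 to 0.18, GRF11 from -0.27 to 0.02, GRF12 from -0.20 to 0.16, GRF7 from -0.54 to 0.38, GRF8 from -0.13 to 0.36 and GSK2 from -0.19 to 0.46.

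The cause of these differences was not tested. With 3 arrays per group, no detection values and no counts, the array number limits what can be told. Restricting the family to proteins with the WRC motif was not run, because no protein table was used.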
